A study of Mus musculus with 6 samples.

Results

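The T cell receptor alpha variable segments were the 85 rows of the deposited CD8+ T cell table whose gene symbol starts with Trav, out of 14750 rows in all. All 85 lie on chromosome 14 and on its plus strand, between positions 52427928 and 53876752 of the GRCm38 mouse genome, by the GENCODE release M21 annotation. The annotation classes 81 of them as variable genes and 4 (Trav8-2, Trav13-3, Trav9n-1 and Trav20) as variable pseudogenes. It names 128 Trav genes, and the other 43 were not analysed here. The libraries came from mouse spleen, from cells isolated with a CD8+ T cell kit after haematopoietic stem cell transplantation (HSCT) and sequenced as total RNA depleted of ribosomal RNA. Of the 6 libraries, 3 carried the label allo-HSCT, with a C57BL/6 donor and a BALB/c host, and 3 the label syn-HSCT, with donor and host both BALB/c. Every sample also carried the strain label Balb/c, whatever its donor, and no label gave an age or said whether each library came from an animal of its own. The spread that the p-values below measure is therefore the spread between libraries, part or all of which may be technical. Below, the groups are called the allo-labelled and the syn-labelled libraries.

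Strain-specific genes ran against the labels. H2-Ea-ps, an MHC class II gene that C57BL/6 mice do not transcribe and BALB/c mice do, was at 1955 FPKM in the allo-labelled libraries and 4.76 FPKM in the syn-labelled libraries (FPKM is the number of fragments scaled by exon length and by library total). Ly6a and Apobec3, strain-specific genes outside MHC class II, ran against the labels too. Ly6a was at 28.6 FPKM in the allo-labelled libraries and 332 FPKM in the syn-labelled libraries. Apobec3 was at 7.88 FPKM in the allo-labelled libraries and 46.1 FPKM in the syn-labelled libraries. The columns titled CD8_S carry the label allo-HSCT and those titled CD8_A the label syn-HSCT, and whether the labels were exchanged cannot be settled here. Each direction below is one between libraries as labelled, and it would turn if they were. Transcripts of other blood cells moved with the groups too. All 8 dendritic cell markers, 7 of 8 neutrophil markers, all 6 tested macrophage markers and all 3 tested erythroid markers were higher in the allo-labelled libraries. Of all genes tested, 34.7% were higher and 33% lower. The part of these other blood cells in the results on Trav segments was not tested. In the allo-labelled libraries the summed level of each marker list was 309 to 326 FPKM for dendritic cells, 1917 to 2032 for neutrophils, 89.6 to 92.2 for macrophages and 44.4 to 51.8 for erythroid cells. In the syn-labelled libraries it was 72.6 to 76.8 FPKM for dendritic cells, 91.8 to 101.4 for neutrophils, 27.8 to 29.2 for macrophages and 0.823 to 1.55 for erythroid cells. Cd79a and Cd79b, the B cell markers in the table, summed to 7.16 to 8.42 FPKM in the allo-labelled libraries and 7.69 to 8.07 FPKM in the syn-labelled libraries. The defining genes of CD8+ T cells were present throughout. Cd8a, the alpha chain of the coreceptor, averaged 351 FPKM in the allo-labelled libraries and 240.2 FPKM in the syn-labelled libraries, and Cd8b1, its beta chain, 490 FPKM in the allo-labelled libraries and 483 FPKM in the syn-labelled libraries. Fragment totals, recovered from the FPKM values, ran between 15154000 and 16351000 in the allo-labelled libraries and between 15310000 and 18715000 in the syn-labelled libraries.

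The receptor of most T cells is a pair of an alpha and a beta chain, which recognises peptides held by MHC molecules. The variable part of an alpha chain is built in the developing thymocyte by joining a Trav segment to a Traj segment, and the RNA then splices this to the constant gene Trac. The segment chosen brings the loops that meet the MHC molecule, while the join itself makes the loop that meets most of the peptide. Trav segments are named by family, and in the reference genome, which is that of C57BL/6J, the middle of the locus is present in several copies. Segments of those copies carry the letter d or n after the family number, and those without a letter are called original here. Segments with dv in the name can also be joined in delta chains, the partners of gamma chains. In bulk RNA, fewer cells that use a segment and less RNA per cell cannot be told apart.

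Copies of a segment are so alike in sequence that reads may be assigned to more than one of them, and the levels of single copies are uncertain for that reason. Family 16 is shown because Trav16 and Trav16n had the largest differences in FPKM of all Trav segments. The last 300 bases of their variable exons follow, 5′ to 3′ on the plus strand from the GENCODE M21 transcripts, at chr14:53743406-53743705 for Trav16 (ENSMUSG00000076855), chr14:53351322-53351621 for Trav16n (ENSMUSG00000076822) and chr14:53047522-53047821 for Trav16d-dv11 (ENSMUSG00000076796). Capitals mark the 6 positions at which the 3 differ, out of 300.
Trav16: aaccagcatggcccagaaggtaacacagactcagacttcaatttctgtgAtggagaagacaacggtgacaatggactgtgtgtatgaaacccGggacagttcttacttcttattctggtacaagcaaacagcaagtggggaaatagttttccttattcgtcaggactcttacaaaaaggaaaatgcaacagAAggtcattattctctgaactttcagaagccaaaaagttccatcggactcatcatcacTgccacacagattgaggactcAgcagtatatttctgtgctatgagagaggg
Trav16n: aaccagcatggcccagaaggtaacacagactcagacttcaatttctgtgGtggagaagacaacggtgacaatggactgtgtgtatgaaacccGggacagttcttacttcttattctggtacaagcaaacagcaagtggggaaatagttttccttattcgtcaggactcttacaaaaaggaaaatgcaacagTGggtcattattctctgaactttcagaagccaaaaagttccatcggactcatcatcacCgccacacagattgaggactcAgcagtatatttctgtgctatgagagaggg
Trav16d-dv11: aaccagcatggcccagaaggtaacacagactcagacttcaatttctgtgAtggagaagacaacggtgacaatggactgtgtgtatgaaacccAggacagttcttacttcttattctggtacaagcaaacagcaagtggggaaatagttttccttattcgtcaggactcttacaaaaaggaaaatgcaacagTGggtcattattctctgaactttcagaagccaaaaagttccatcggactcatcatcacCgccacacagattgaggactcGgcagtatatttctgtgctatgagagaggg
Between pairs of these exons the identity was 98.3% to 99.0%, aligned over 301 bases.

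A pair from family 8 and a pair from family 7 are shown because the copies of each pair differed between the groups in opposite directions. Their exons lie at chr14:53469948-53470232 (Trav8-1), chr14:52778711-52778995 (Trav8d-1), chr14:53461447-53461738 (Trav7-4) and chr14:52770101-52770392 (Trav7d-4). Capitals mark the bases at which the members of a pair differ, which are 3 of 285 in family 8 and 1 of 292 in family 7.
Trav8-1: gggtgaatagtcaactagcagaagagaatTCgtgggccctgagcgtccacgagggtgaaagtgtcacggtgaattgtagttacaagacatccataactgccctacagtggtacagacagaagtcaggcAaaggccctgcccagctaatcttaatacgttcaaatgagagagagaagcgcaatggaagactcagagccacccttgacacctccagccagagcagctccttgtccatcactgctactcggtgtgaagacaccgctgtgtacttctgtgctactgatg
Trav8d-1: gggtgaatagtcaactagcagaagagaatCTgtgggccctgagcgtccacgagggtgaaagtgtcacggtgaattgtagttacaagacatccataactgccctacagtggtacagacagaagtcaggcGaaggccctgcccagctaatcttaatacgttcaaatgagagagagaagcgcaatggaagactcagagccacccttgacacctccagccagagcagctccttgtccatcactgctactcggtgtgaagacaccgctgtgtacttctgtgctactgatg
Trav7-4: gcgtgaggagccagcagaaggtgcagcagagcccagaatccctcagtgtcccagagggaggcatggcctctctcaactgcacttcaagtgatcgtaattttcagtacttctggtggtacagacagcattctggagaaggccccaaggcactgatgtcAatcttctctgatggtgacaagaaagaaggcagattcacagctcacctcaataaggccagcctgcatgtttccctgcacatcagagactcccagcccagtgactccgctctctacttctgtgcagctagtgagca
Trav7d-4: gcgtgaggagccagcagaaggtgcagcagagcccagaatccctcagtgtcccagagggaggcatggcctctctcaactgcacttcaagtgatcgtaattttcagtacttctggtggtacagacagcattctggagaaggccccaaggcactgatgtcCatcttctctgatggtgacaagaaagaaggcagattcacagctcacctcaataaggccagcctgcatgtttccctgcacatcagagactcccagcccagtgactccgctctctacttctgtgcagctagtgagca
Over all 51 pairs of copies in the table, the identity of the variable exons ran from 91.4% to 100%, with a median of 97.95%. For 17 of the 85 rows an annotated Trav segment elsewhere in the locus has the same variable exon base for base, and for 47 rows the nearest other segment is at least 98% identical. At the other end, the nearest segment to Trav2 and to Trav21-dv12 is 62.9% identical.

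Segment use differed between the groups in both directions. Of the 85 rows, 61 reached 1 FPKM in at least 3 of the 6 libraries and were tested, and 24 were not. With limma on log2(FPKM + 1) and Benjamini-Hochberg adjustment over all 12404 genes tested, 19 of the 61 were higher and 16 lower in the allo-labelled libraries at an adjusted p under 0.05, and 26 were not called. The 35 calls are 57.4% of the 61, with 31.1% higher and 26.2% lower, where 67.6% of all genes tested were called, 34.7% higher and 33% lower. The 3 libraries of a group lay wholly apart from those of the other group in 37 of the 61 rows (60.7%), where 72.3% of all genes tested did so. Of the 61, 9 passed the filter through 1 group alone, and such a row had to differ to be tested at all. These were Trav6d-7, through the allo-labelled libraries, and Trav16, Trav12-2, Trav7-5, Trav8-1, Trav5-4, Trav8-2, Trav7n-4 and Trav6-5, through the syn-labelled libraries. Their calls and lack of overlap below describe them and are no support for a difference. The median log2 difference of the 61 was 0.03, and that of all genes tested 0.01. None of these shares was above the share over all genes.

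**Figure D1:**
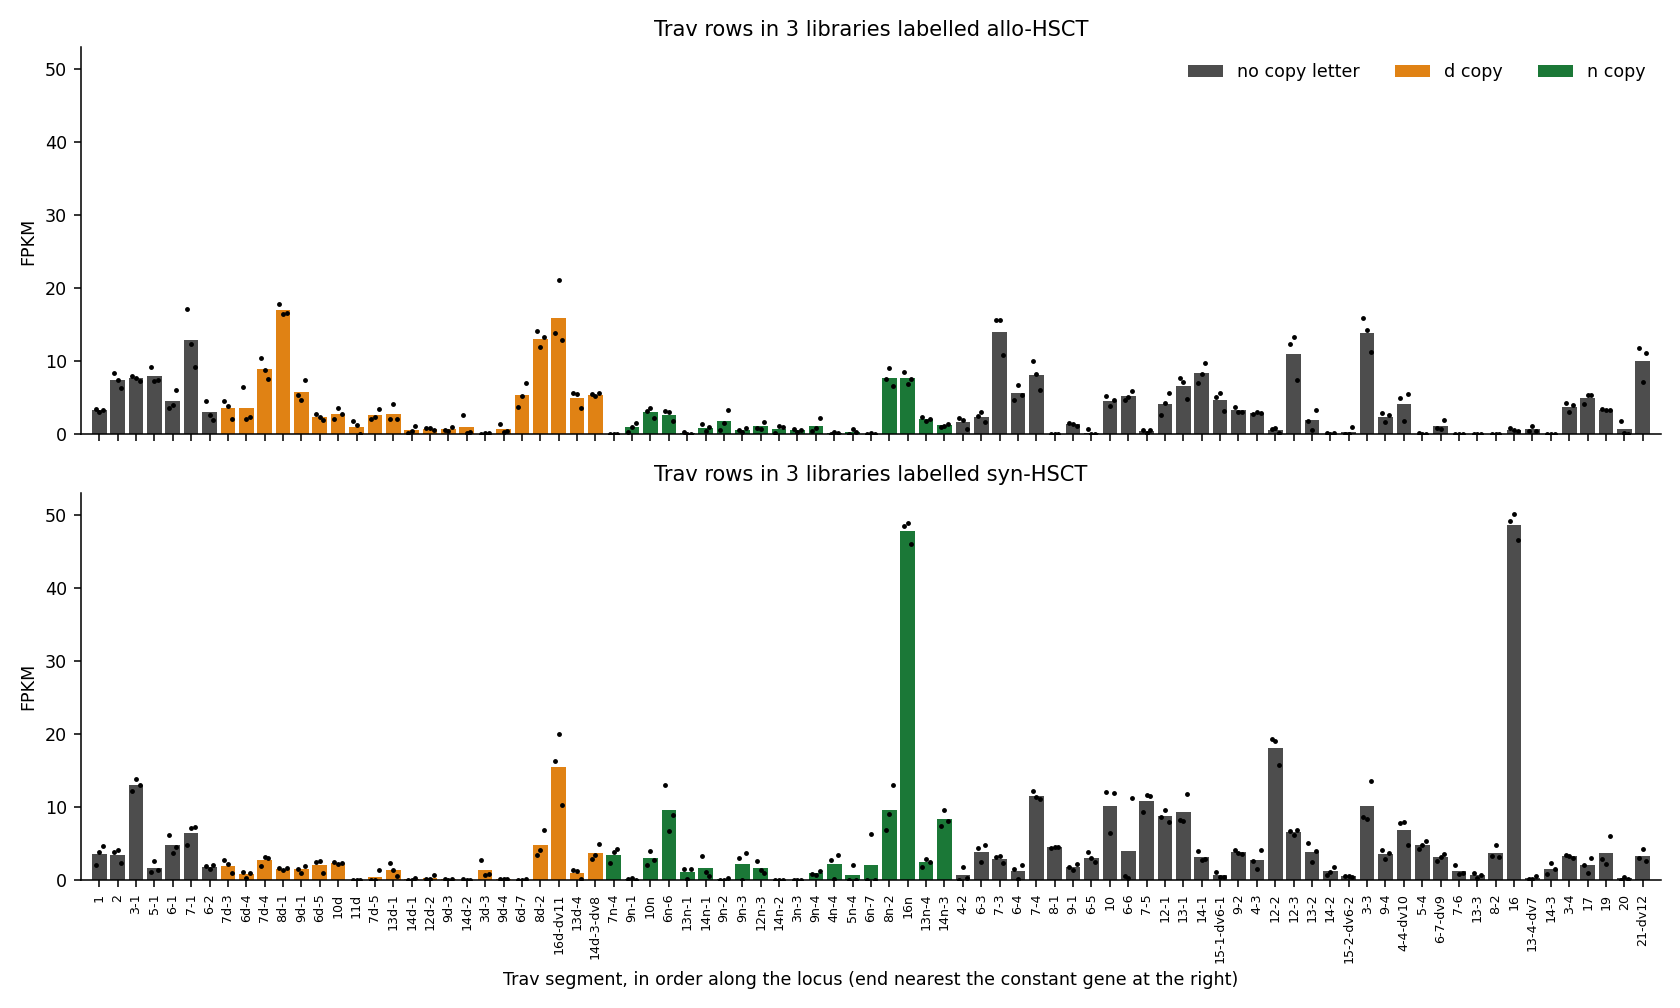
FPKM of the 85 Trav rows (vertical axis) in their order along the locus (horizontal axis), for the 3 allo-labelled libraries above and the 3 syn-labelled libraries below; bars are means and points are libraries, and colours give the copy. Trav16 and Trav16n lie at 0.471 to 8.52 FPKM in the allo-labelled libraries, where Trav8d-1 has the highest mean, 17.0 FPKM, and at 46.0 to 50.2 FPKM in the syn-labelled libraries.

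The largest differences in FPKM were in family 16. Trav16 was at 0.918, 0.582 and 0.471 FPKM in the allo-labelled libraries, and at 49.1, 50.2 and 46.6 FPKM in the syn-labelled libraries. The groups were far apart, and the recovered fragments behind these levels were 6, 4 and 3 in the allo-labelled libraries, against 316, 381 and 366 in the syn-labelled libraries. The mean was 74.0-fold lower in the allo-labelled libraries, and the log2 difference was -4.91 ± 0.10 (SE; limma, adjusted p = 7.84e-08, n = 3 each), for a row that passed the filter through the syn-labelled libraries alone. Trav16n, the n copy, was at 8.52, 6.93 and 7.63 FPKM in the allo-labelled libraries and at 48.5, 48.9 and 46.0 FPKM in the syn-labelled libraries. It too had no overlap, with a 6.21-fold lower mean and a log2 difference of -2.49 ± 0.07 (SE; limma, adjusted p = 2.63e-07). Trav16d-dv11, the d copy, was at 13.8, 21.1 and 12.9 FPKM in the allo-labelled libraries and at 16.3, 20.1 and 10.3 FPKM in the syn-labelled libraries. Its groups overlapped fully, and the log2 difference was 0.05 ± 0.26 (SE; limma, adjusted p = 0.879). Its sign turned without allo-labelled replicate 2 (-0.16) or without syn-labelled replicate 3 (-0.20), and it was called higher once the libraries were scaled to the same Trac level (0.69; limma, adjusted p = 0.0391).

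The 3 rows of family 16 together made up 6.96%, 9.18% and 7.13% of the summed Trav FPKM in the allo-labelled libraries, and 29.9%, 31.6% and 26.1% in the syn-labelled libraries. Trav16 alone averaged 0.207% ± 0.060 of it in the allo-labelled libraries and 12.7% ± 0.77 in the syn-labelled libraries (SD, n = 3 each). The second family with a lower share in the allo-labelled libraries and no overlap was family 12, at 5.24%, 6.42% and 5.29%, against 9.79%, 9.64% and 8.19% in the syn-labelled libraries. Within it, Trav12-2 was at 0.754, 0.861 and 0.155 FPKM in the allo-labelled libraries and at 19.3, 19.1 and 15.8 FPKM in the syn-labelled libraries. That is a log2 difference of -3.61 ± 0.19 (SE; limma, adjusted p = 4.93e-06), again for a row that passed the filter through the syn-labelled libraries alone. Trav12-3, of the same family, went the other way, with 11.03 ± 3.13 FPKM in the allo-labelled libraries and 6.56 ± 0.387 FPKM in the syn-labelled libraries (SD, n = 3 each; limma, adjusted p = 0.0224). Its call was lost without allo-labelled replicate 1 or 2 or syn-labelled replicate 1 or 2, with limma's adjusted p up to 0.0722.

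Of the 20 families, 13 had shares that did not overlap between the groups, 11 higher and 2 lower in the allo-labelled libraries. By FPKM, a measure unlike a family share, 72.3% of all genes tested did not overlap, so the count by itself does not set the families apart. Shares add up to a whole, so the drop in family 16 by itself lifts the others. Family 7, with 9 rows, held 18.1%, 16.5% and 13.6% in the allo-labelled libraries and 10.1%, 11.6% and 10.9% in the syn-labelled libraries. Family 8, with 5 rows, held 11.8%, 12.1% and 12.4% in the allo-labelled libraries, against 5.16%, 6.34% and 7.39% in the syn-labelled libraries. Family 8 was also higher in FPKM, at 37.9 ± 1.46 in the allo-labelled libraries and 24.2 ± 4.73 in the syn-labelled libraries (SD, n = 3 each), while the summed FPKM of family 7 overlapped between the groups. Family 6 held 11.7% ± 0.53 in the allo-labelled libraries and 9.495% ± 1.32 in the syn-labelled libraries, and family 3 held 8.29% ± 0.37 in the allo-labelled libraries and 7.24% ± 0.44 in the syn-labelled libraries. The shares of both did not overlap, while their summed FPKM did. Family 14 averaged 5.92% ± 0.86 in the allo-labelled libraries and 5.17% ± 0.20 in the syn-labelled libraries, a narrow gap without overlap. Family 13 overlapped, at 6.12% ± 0.47 in the allo-labelled libraries and 5.18% ± 0.68 in the syn-labelled libraries. In summed FPKM, families 4, 10, 12 and 16 were lower without overlap, and families 2, 8, 15, 17 and 21 higher. Family 10 averaged 10.4 FPKM in the allo-labelled and 15.4 FPKM in the syn-labelled libraries. Family 4 averaged 8.88 FPKM in the allo-labelled and 12.4 FPKM in the syn-labelled libraries. The shares of families 4 and 10 overlapped.

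Among the families of 1 row, Trav21-dv12 held 3.53%, 2.29% and 3.796% of the summed Trav FPKM in the allo-labelled libraries and 0.809%, 1.14% and 0.678% in the syn-labelled libraries. Trav2 averaged 7.42 ± 0.98 FPKM in the allo-labelled libraries and 3.40 ± 0.98 FPKM in the syn-labelled libraries, and Trav17 averaged 4.98 ± 0.72 FPKM in the allo-labelled libraries and 2.02 ± 1.00 FPKM in the syn-labelled libraries (SD, n = 3 each). All 3 passed limma's test, with adjusted p of 0.00112 for Trav21-dv12, 0.00281 for Trav2 and 0.009 for Trav17. Their variable exons are at most 75% identical to that of any other annotated Trav segment. Calls in both directions were found within 6 of the 20 families, so a family share does not speak for each of its segments.

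**Figure D2:**
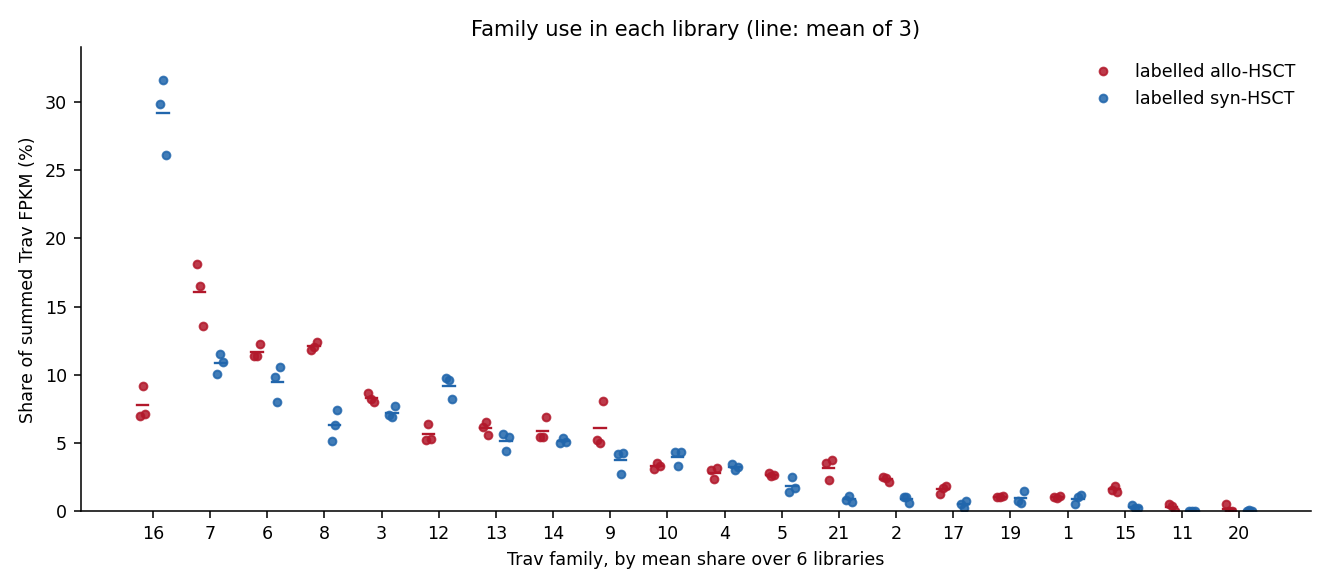
Share of the summed Trav FPKM in percent (vertical axis) for each of 20 families (horizontal axis); points are the 3 allo-labelled libraries at the left of each pair and the 3 syn-labelled libraries at the right, and lines are means. Family 16 averages 7.76% in the allo-labelled libraries and 29.2% in the syn-labelled libraries, and families 7, 8 and 21 lie higher in the allo-labelled libraries.

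Among the segments with higher levels in the allo-labelled libraries, Trav8d-1 stood out. It was at 17.8, 16.5 and 16.7 FPKM in the allo-labelled libraries and at 1.63, 1.38 and 1.60 FPKM in the syn-labelled libraries, 11.04-fold higher by the means (log2 difference 2.83 ± 0.06, SE; limma, adjusted p = 1.03e-07). It was the most used segment by mean in the allo-labelled libraries, with 5.43% ± 0.20 of the summed Trav FPKM. Trav7-3 was at 15.7, 15.7 and 10.8 FPKM in the allo-labelled libraries and at 3.09, 3.30 and 2.39 FPKM in the syn-labelled libraries (log2 difference 1.93 ± 0.16, SE). Trav5-1 was at 9.18, 7.31 and 7.50 FPKM in the allo-labelled libraries, against 1.14, 2.58 and 1.40 FPKM in the syn-labelled libraries (1.76 ± 0.20, SE). None of these 3 segments overlapped between the groups, and limma's adjusted p was 4.24e-05 for Trav7-3 and 0.000204 for Trav5-1.

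Trav6d-7 was at 3.77, 5.30 and 7.005 FPKM in the allo-labelled libraries, and it was listed at 0 in syn-labelled replicates 1 and 2 and at 0.149 FPKM, or 1 fragment, in replicate 3 (limma, adjusted p = 2.54e-05). It passed the filter through the allo-labelled libraries alone. Trav15-1-dv6-1 averaged 4.69 ± 1.35 FPKM in the allo-labelled libraries and 0.660 ± 0.429 FPKM in the syn-labelled libraries (limma, adjusted p = 0.000524). Trav13d-4 averaged 4.92 ± 1.15 FPKM in the allo-labelled libraries and 0.904 ± 0.652 FPKM in the syn-labelled libraries (SD, n = 3 each). Both passed the test and did not overlap. Trav8d-2 averaged 13.1 ± 1.08 FPKM in the allo-labelled libraries and 4.80 ± 1.77 FPKM in the syn-labelled libraries (limma, adjusted p = 0.000938). Trav7-1 was at 17.2, 12.3 and 9.20 FPKM in the allo-labelled libraries and at 4.85, 7.06 and 7.29 FPKM in the syn-labelled libraries. It was the widest in spread of the called segments named here within the allo-labelled libraries, and its groups still did not overlap (log2 difference 0.89 ± 0.23, SE; adjusted p = 0.0118 by limma).

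Among the segments with lower levels in the allo-labelled libraries outside families 16 and 12, Trav7-5 was at 0.572, 0.181 and 0.587 FPKM in the allo-labelled libraries and at 9.30, 11.7 and 11.6 FPKM in the syn-labelled libraries (log2 difference -3.04 ± 0.14, SE; limma, adjusted p = 3.05e-06). Trav5-4 was at 0.187, 0 and 0 FPKM in the allo-labelled libraries and at 4.19, 4.84 and 5.30 FPKM in the syn-labelled libraries. Trav8-1 was listed at 0 in all 3 allo-labelled libraries and at 4.38, 4.55 and 4.56 FPKM in the syn-labelled libraries. All 3 segments passed the filter through the syn-labelled libraries alone, so their calls by limma are given as a description. Trav3-1 had a smaller difference, with 7.72 ± 0.325 FPKM in the allo-labelled libraries and 13.0 ± 0.790 FPKM in the syn-labelled libraries (SD, n = 3 each; log2 difference -0.68 ± 0.06, SE; limma, adjusted p = 4.18e-05). The log2 difference of Trac was -0.68 too, and the call was lost once the libraries were scaled to the same Trac level (-0.06, adjusted p = 0.332 by limma). Trav3-1 was still called lower when scaled to Cd3 (-0.22, adjusted p = 0.00611 by limma) or to summed Trav (-0.42, adjusted p = 0.000827 by limma).

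Several much used segments were not called. Trav3-3 averaged 13.9 ± 2.34 FPKM in the allo-labelled libraries and 10.1 ± 2.93 FPKM in the syn-labelled libraries, with a log2 difference of 0.44 ± 0.19 (SE; limma, adjusted p = 0.0875). The syn-labelled replicate 3, at 13.5 FPKM, lay within the range of the allo-labelled libraries, and without it the segment was called higher (limma, adjusted p = 0.00764). Trav8n-2 averaged 7.78 ± 1.27 FPKM in the allo-labelled libraries and 9.64 ± 3.08 FPKM in the syn-labelled libraries and was not called. Trav1, the segment at the far end of the locus from the constant gene, was at 3.46, 3.13 and 3.38 FPKM in the allo-labelled libraries and at 2.11, 3.88 and 4.61 FPKM in the syn-labelled libraries. Its groups overlapped (log2 difference -0.03 ± 0.21, SE; limma, adjusted p = 0.922), and its direction turned without allo-labelled replicate 2 or syn-labelled replicate 2 or 3. Without syn-labelled replicate 1 it was called lower (log2 difference -0.27; limma, adjusted p = 0.0375). Trav11d, whose variable exon matches that of Trav11 at every aligned base, a segment used by invariant natural killer T cells of mice, was at 1.88, 1.252 and 0 FPKM in the allo-labelled libraries and listed at 0 in all 3 syn-labelled libraries. It did not reach the level for testing, and Trav11 was not analysed here.

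The copies of some segments moved apart. Summed over rows, the 21 d copies made up 31.1%, 32.5% and 31.5% of the summed Trav FPKM in the allo-labelled libraries and 11.4%, 11.7% and 9.71% in the syn-labelled libraries. The 19 n copies made up 9.40%, 10.7% and 11.8% in the allo-labelled libraries and 25.3%, 25.9% and 24.7% in the syn-labelled libraries. The 45 original segments made up 59.5%, 56.7% and 56.7% in the allo-labelled libraries and 63.4%, 62.5% and 65.6% in the syn-labelled libraries. None of the 3 shares overlapped between the groups. Of the 14 tested d copies, 9 were higher in the allo-labelled libraries and 5 were not called. Of the 9 tested n copies, 4 were lower and 5 were not called, and of the 38 tested originals, 10 were higher, 12 lower and 16 not called. Of all genes tested, 34.7% were higher and 33% lower. The counts include rows that had to differ to be tested, so they are a description only. Such rows were Trav6d-7 among the d copies and Trav7n-4 among the n copies. Among the originals they were Trav16, Trav12-2, Trav7-5, Trav8-1, Trav5-4, Trav8-2 and Trav6-5. Without family 16 the d copies still held 28.9% ± 0.43 in the allo-labelled libraries and 9.67% ± 0.44 in the syn-labelled libraries, and the n copies held 8.89% ± 1.35 in the allo-labelled libraries and 18.1% ± 0.66 in the syn-labelled libraries (SD, n = 3 each).

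Within 6 of the 25 sets with more than 1 copy, members were called in opposite directions. The 7 pairs of members so called, out of 51 pairs of copies, shared 94.4% to 99.7% of their variable exon bases. Trav8-1, Trav8-2, Trav7-5, Trav7n-4 and Trav6d-7 are members of such pairs. They passed the filter only through the group where they were high, so their calls are given as a description. Trav8d-1 was higher and Trav8-1 lower in the allo-labelled libraries, and the sum of both was 17.8, 16.5 and 16.7 FPKM in the allo-labelled libraries and 6.01, 5.94 and 6.16 FPKM in the syn-labelled libraries. The pair as a whole was thus higher (limma on summed copies, adjusted p = 5.64e-07), though all of its level in the allo-labelled libraries was in the d copy. Trav7d-4 was at 10.4, 8.81 and 7.61 FPKM in the allo-labelled libraries and at 1.88, 3.19 and 3.08 FPKM in the syn-labelled libraries. Trav7-4, which differs from it by the 1 base shown above, was at 10.1, 8.27 and 6.15 FPKM in the allo-labelled libraries and at 12.2, 11.4 and 11.1 FPKM in the syn-labelled libraries. Trav7n-4 was listed at 0 in all 3 allo-labelled libraries and averaged 3.47 ± 1.03 FPKM in the syn-labelled libraries. The sum of these 3 copies was 17.1 ± 3.38 FPKM in the allo-labelled libraries and 17.8 ± 1.23 FPKM in the syn-labelled libraries (SD, n = 3 each), not called by limma on summed copies (adjusted p = 0.684). The call of Trav7-4 as lower was weak (limma, adjusted p = 0.0272) and was lost without allo-labelled replicate 2 or any single syn-labelled library, with adjusted p up to 0.0779.

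The other sets with opposite calls were Trav7-5, Trav8-2, Trav14-3 and Trav6-7. In Trav8-2, the original, a pseudogene in the annotation, was listed at 0 in all 3 allo-labelled libraries and averaged 3.74 ± 0.884 FPKM in the syn-labelled libraries, while the d copy was higher in the allo-labelled libraries. In Trav14-3, the n copy averaged 1.24 ± 0.202 FPKM in the allo-labelled libraries and 8.40 ± 1.14 FPKM in the syn-labelled libraries, and Trav14d-3-dv8 averaged 5.46 ± 0.209 FPKM in the allo-labelled libraries and 3.73 ± 1.07 FPKM in the syn-labelled libraries (SD, n = 3 each). Segments with the same variable exon were also listed apart. Trav3d-3 was at 0, 0.143 and 0.155 FPKM in the allo-labelled libraries and at 2.75, 0.648 and 0.876 FPKM in the syn-labelled libraries. Trav3n-3 was at 0.752, 0.286 and 0.618 FPKM in the allo-labelled libraries and listed at 0 in the syn-labelled libraries. These levels were too low for testing. Reads from an identical exon cannot tell such copies apart, and how the authors assigned them is not given in the sources used here. Whether each donor strain carries the same copies as the annotation was not tested.

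**Figure D3:**
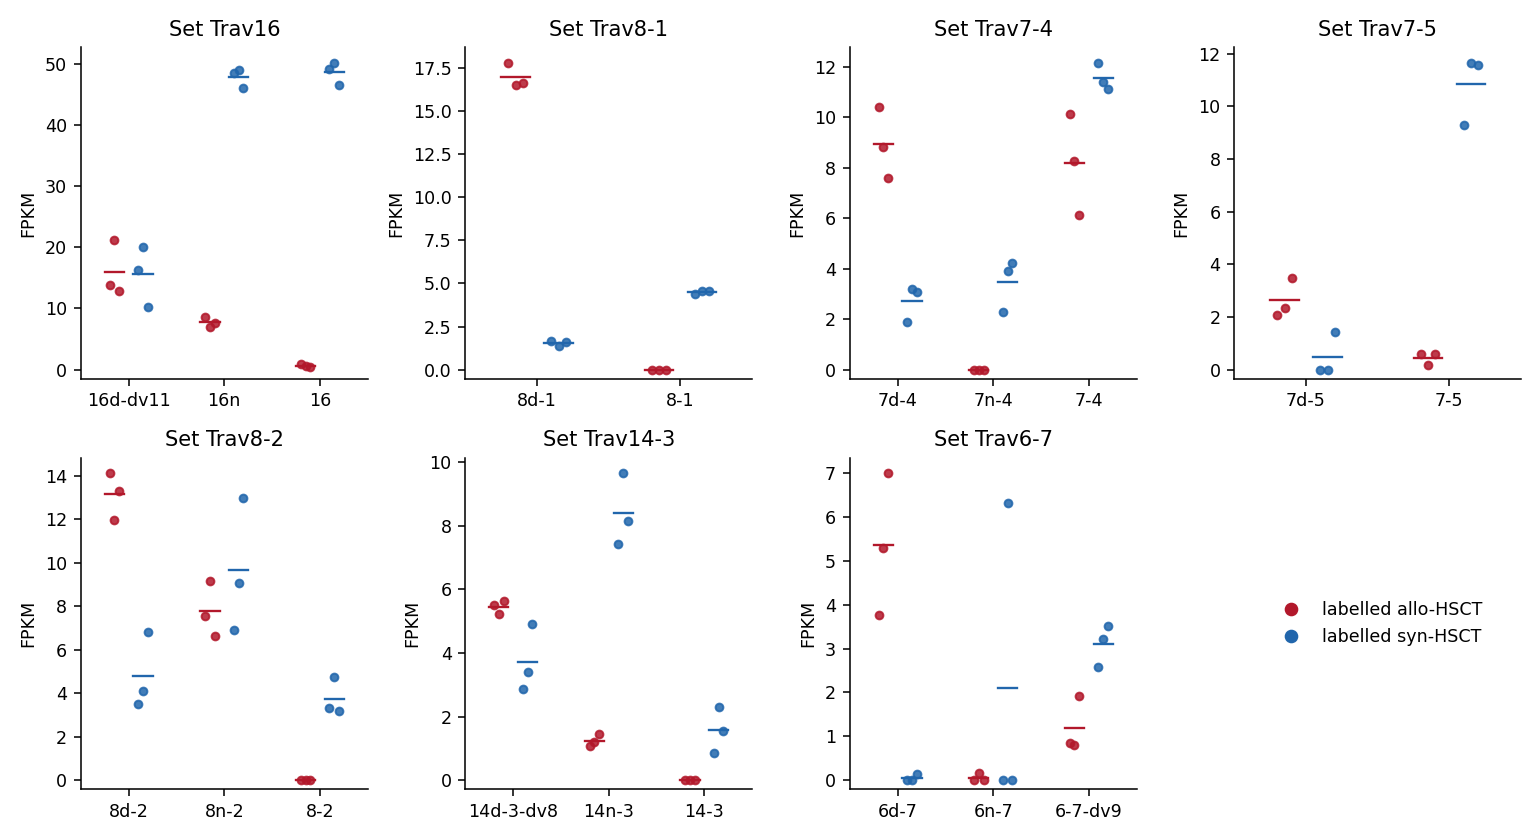
FPKM (vertical axes, each panel with its own scale) of the copies of family 16 and of the 6 sets with calls in opposite directions (horizontal axes, in locus order), with the allo-labelled libraries at the left of each pair and the syn-labelled libraries at the right; points are libraries and lines are means. In the Trav8-1 set the d copy lies at 16.5 to 17.8 FPKM in the allo-labelled libraries and the original at 4.38 to 4.56 FPKM in the syn-labelled libraries.

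When the rows of each set of copies were summed before the fit, 47 sets remained, of which 42 were tested. Of these, 13 were higher and 10 lower in the allo-labelled libraries and 19 were not called, so 31% were higher and 23.8% lower, where 34.7% of all genes of that fit were higher and 33% lower. Family 16 as a sum was at 23.3, 28.6 and 21.003 FPKM in the allo-labelled libraries and at 113.9, 119.2 and 102.8 FPKM in the syn-labelled libraries. It remained lower (log2 difference -2.17 ± 0.11, SE; limma on summed copies, adjusted p = 4.59e-06), 4.61-fold by the means.

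Use also differed by position along the locus. With the locus split into 3 equal spans, the span farthest from Trac held 31.3% ± 1.45 of the summed Trav FPKM in the allo-labelled libraries and 12.9% ± 0.52 in the syn-labelled libraries. The middle span held 26.0% ± 1.89 in the allo-labelled libraries and 32.3% ± 1.47 in the syn-labelled libraries, and the span nearest Trac held 42.7% ± 0.45 in the allo-labelled libraries and 54.8% ± 1.96 in the syn-labelled libraries (SD, n = 3 each). None overlapped between the groups. The farthest span holds 18 rows, 11 of the 21 d copies among them. The 29 rows of the middle span are all d or n copies. There the 4 rows called higher in the allo-labelled libraries were d copies and the 4 called lower were n copies. Trav6d-7 and Trav7n-4, among these rows, had to differ to be tested. Of all genes tested, 34.7% were higher and 33% lower. How far the shares of the spans go with position or with copy was not tested. The 8 segments that can also serve delta chains held 13.6% ± 0.75 in the allo-labelled libraries and 8.89% ± 1.83 in the syn-labelled libraries. Trdc, the delta constant gene, was low in both groups, at 0.845 ± 0.283 FPKM in the allo-labelled libraries and 0.505 ± 0.164 FPKM in the syn-labelled libraries (SD, n = 3 each).

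Use was more even in the allo-labelled libraries, and the gap closed when family 16 was left out. The effective number of segments, the number of equally used segments that would give the same Shannon diversity, was 47.9, 46.3 and 50.05 in the allo-labelled libraries and 37.9, 35.9 and 40.01 in the syn-labelled libraries. Pielou's evenness, which is 1 when all 85 rows are used equally, was 0.871, 0.863 and 0.881 in the allo-labelled libraries and 0.818, 0.806 and 0.830 in the syn-labelled libraries. Neither measure overlapped between the groups. The exact two-sided permutation test over the 20 splits of 3 against 3 gave p = 0.1 for both, which is the smallest p this design allows, and 0.1 after Benjamini-Hochberg adjustment over 4 tests. The most used segment held 5.92% ± 0.76 of the summed Trav FPKM in the allo-labelled libraries and 12.7% ± 0.77 in the syn-labelled libraries, and the top 5 held 24.1% ± 1.87 in the allo-labelled libraries and 37.7% ± 3.11 in the syn-labelled libraries (SD, n = 3 each). It took 14, 14 and 16 segments to reach 50% of the summed FPKM in the allo-labelled libraries and 9, 9 and 11 in the syn-labelled libraries.

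Without the 3 rows of family 16, the effective number was 45.9, 45.6 and 48.4 in the allo-labelled libraries and 48.6, 46.8 and 48.4 in the syn-labelled libraries. The groups then overlapped, with the direction turned (exact two-sided permutation test, p = 0.2). Family 16 was left out after the values were seen, and it differed most in share of all families. These values therefore describe the remaining rows and test nothing about family 16. Leaving out only Trav16n, the segment with the highest mean, reduced the difference to 5.74 effective segments, with no overlap. The number of rows above 0 was also alike, at 74, 74 and 73 in the allo-labelled libraries and 74, 75 and 78 in the syn-labelled libraries. The beta variable segments ran the other way. Over their 23 rows the effective number was 13.1 ± 0.19 in the allo-labelled libraries and 14.9 ± 0.24 in the syn-labelled libraries (SD, n = 3 each).

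**Figure D4:**
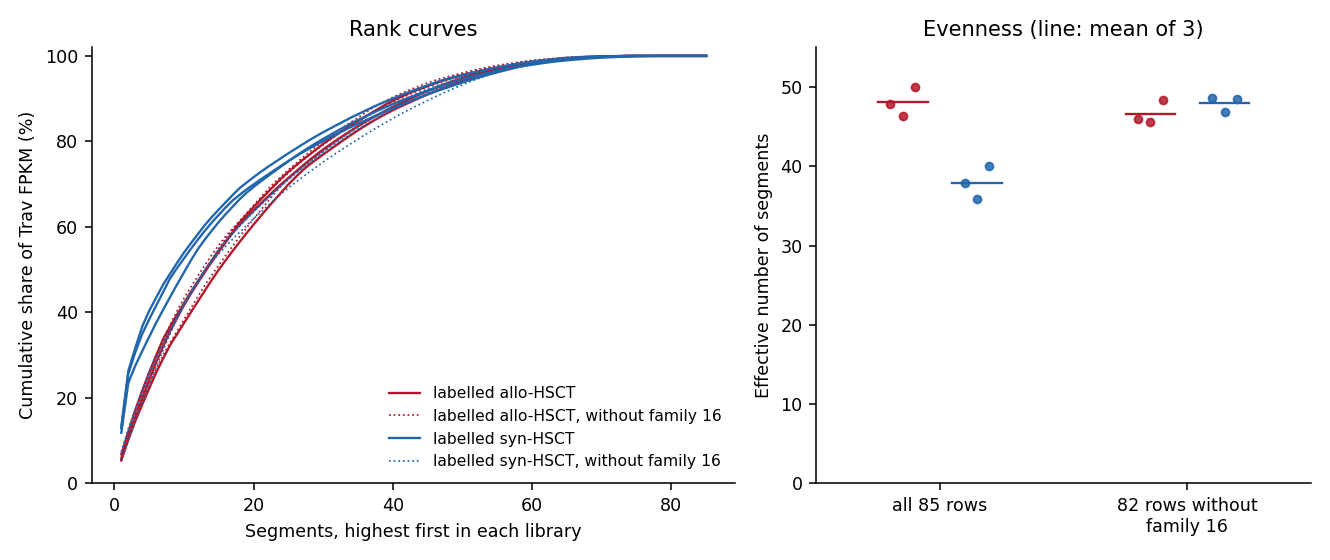
Left, cumulative share of the summed Trav FPKM in percent against the number of segments, highest first, for each library, with all 85 rows (solid) and without family 16 (dotted); right, the effective number of segments per library with the mean of 3 as a line. With all rows the allo-labelled libraries lie at 46.3 to 50.05 and the syn-labelled libraries at 35.9 to 40.01, and without family 16 both groups lie between 45.6 and 48.6.

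The libraries of a group resembled each other closely in segment use. The Morisita-Horn similarity, which is 1 for the same shares and 0 for no shared segment, was 0.950 to 0.965 within the allo-labelled libraries and 0.961 to 0.983 within the syn-labelled libraries. Between the groups, over 9 pairs, it was 0.417 to 0.471. It was 0.523 to 0.687 between the groups with copies summed and 0.685 to 0.829 with families as units. Summing rows into fewer units can raise this similarity by itself, and no other grouping was compared. How much of the distance lay between copies or within families was therefore not tested. Beta variable segments, over 23 rows, gave 0.809 to 0.826 between the groups. That is higher than the 85 alpha rows gave, and within the range of the 20 alpha families.

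The level of alpha chain RNA differed as well. The summed Trav FPKM was 334, 312 and 295 in the allo-labelled libraries and 381, 377 and 394 in the syn-labelled libraries, a log2 difference of -0.29 without overlap (exact two-sided permutation test, p = 0.1, the smallest possible). Without family 16, again left out after the values were seen, the difference was 0.09 (p = 0.4 by the same exact test), with overlapping groups. Trac, the constant gene of alpha chains, was at 282, 279 and 274 FPKM in the allo-labelled libraries and at 454, 443 and 444 FPKM in the syn-labelled libraries. The ratio of summed Trav to Trac was therefore higher in the allo-labelled libraries, at 1.18, 1.12 and 1.08, against 0.841, 0.850 and 0.888 in the syn-labelled libraries (exact permutation p = 0.1). The 7 genes of the receptor complex are Trac, Trbc1, Trbc2 and the 4 CD3 and zeta chain genes Cd3d, Cd3e, Cd3g and Cd247. All 7 were lower in the allo-labelled libraries, as were 33% of all genes tested. The median log2 difference of the 7 was -0.59, where that of all genes tested was 0.01. Scaled so that each library had the same Trac level, 32 of 62 tested Trav rows were higher and 11 lower in the allo-labelled libraries, or 51.6% and 17.7%, where 78.3% of all genes were higher and 7.54% lower. That scaling moved the median log2 difference of all genes tested to 0.60, so the share of Trav rows called higher stood below that of all genes and the share called lower above it. The direction of 30 rows, 19 higher and 11 lower, was called the same way with and without it.

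The joining of alpha segments takes place in the thymus, before T cells reach the spleen. Rag1 and Rag2, the recombinase genes, were not analysed here. Dntt, whose product adds bases at the joins, was at 0.664, 0.575 and 0.558 FPKM in the allo-labelled libraries and listed at 0 in the syn-labelled libraries, too low for testing. Of the 12 tested genes of the joining and repair list, 1 was higher, 6 were lower and 5 were not called, with a median log2 difference of -0.16. The 7 of 12 called are fewer than the 67.6% of all genes tested. The lower ones included Hmgb2, a DNA-bending protein that assists the recombinase, at 148.8 ± 2.02 FPKM in the allo-labelled libraries and 362 ± 10.1 FPKM in the syn-labelled libraries (SD, n = 3 each). Of 12 tested regulators of the alpha locus, 3 were higher, 7 lower and 2 not called, with a median of -0.29, where 34.7% of all genes tested were higher and 33% lower. Tcf7, the gene of the transcription factor TCF-1, was the furthest apart, at 116.8 ± 1.78 FPKM in the allo-labelled libraries and 16.3 ± 0.31 FPKM in the syn-labelled libraries.

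Some segments were high in a single library. A row was counted as such if 1 library had at least 10 recovered fragments and at least 5 times the level of both others of its group, a rule chosen after the values were seen. This held for 6 of 75 Trav rows with enough fragments, or 8%, for 18 of 111 immunoglobulin rows, or 16.2%, for none of 23 beta variable rows, and for 0.654% of the 14063 rows other than Trav. The share was thus higher in immunoglobulin rows than in Trav rows. The kinds of row were not matched for number of fragments, and the part of depth in these shares was not tested. Trav6-6 was at 4.67, 5.16 and 5.95 FPKM in the allo-labelled libraries and at 0.570, 0.322 and 11.2 FPKM in the syn-labelled libraries. Its high value in replicate 3 rested on 72 fragments, and it was not called (limma, adjusted p = 0.27). Trav6n-7 was at 0, 0.171 and 0 FPKM in the allo-labelled libraries and at 0, 6.34 and 0 FPKM in the syn-labelled libraries, where the high value rested on 41 fragments in replicate 2. Its variable exon is identical to that of Trav6d-7, which was listed at 0 in that library. The remaining 4 were Trav14d-2 and Trav20, both high in allo-labelled replicate 1, and Trav4-2 and Trav5n-4, both high in syn-labelled replicate 2, on 10 to 19 fragments each. The variable exons of Trav6-6, Trav14d-2 and Trav5n-4 are also identical to that of another annotated segment.

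**Figure D5:**
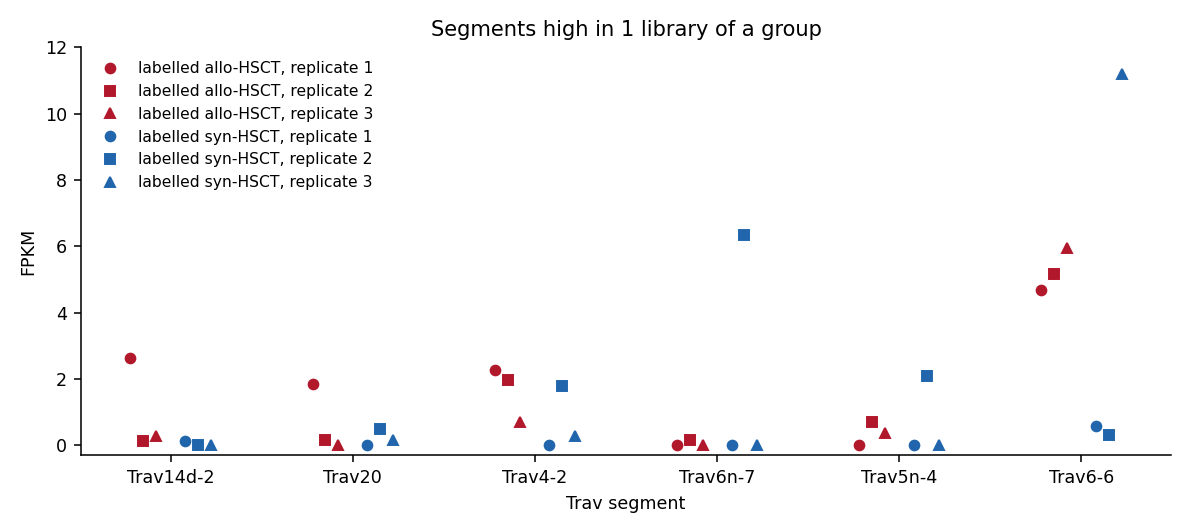
FPKM (vertical axis) of the 6 Trav segments that were high in 1 library of a group (horizontal axis), for the 3 allo-labelled libraries at the left and the 3 syn-labelled libraries at the right, with a marker shape for each replicate. Trav6-6 reaches 11.2 FPKM and Trav6n-7 6.34 FPKM, each in 1 syn-labelled library.

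Depth limited what could be seen of single segments. Trav rows drew 1738 to 2029 recovered fragments per allo-labelled library and 2322 to 2919 per syn-labelled library, with a median of 15 fragments per value. Values of 10 fragments or fewer made up 41.4% of all Trav values. A row listed at 0 in a library allows a share of up to 0.148% to 0.173% of the Trav fragments in the allo-labelled libraries and up to 0.103% to 0.129% in the syn-labelled libraries, for counting error only. By that measure, the 6 rows listed at 0 in all allo-labelled libraries and the 3 listed at 0 in all syn-labelled libraries were not detectable at this depth. Of the 85 rows, 57 were above 0 in all 6 libraries.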

How the data were processed

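Gene expression was measured by RNA sequencing in 6 libraries of spleen CD8+ T cells, 3 labelled allo-HSCT and 3 labelled syn-HSCT, grouped by the label that gives donor and host. The authors deposited 1 table of FPKM values per gene; the aligner, counter and genome build are not given in the sources used here, and limma is named without a version in the submitters' processing notes. How reads shared by near-identical copies were counted is not given either, and this bears on every single segment. Each row's larger group mean was at least 0.5001 FPKM, so lower rows had been left out of the table.

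Here, genes of at least 1 FPKM in at least 3 libraries were tested with limma (version 3.58.1, R 4.3.3) on log2(FPKM + 1), with eBayes trend, no block, and Benjamini-Hochberg adjustment over 12404 genes. A fold change on this scale understates that of low genes. The fit was first tested on simulated data. The design provided for counts too, but the values were FPKM, so limma on log2 values was used, with voom on recovered fragments as an alternative. Whole fragments were recovered from FPKM with GENCODE M21 exon lengths (94.3% to 94.6% of values whole within 0.1 fragments, and 100% of Trav values). Evenness was Shannon entropy over log(85). Single values were compared by exact permutation of libraries. Variable exons were aligned with Biopython 1.88.

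Segments named are the 12 with the highest mean, up to 6 called with the largest difference in each direction (group mean of at least 2 FPKM, no overlap), Trav1 and Trav11d; other segments were chosen after their values were seen. The members, gene lists and rules were chosen with earlier results of these data known. The replicate numbers were not used as pairs in the main fit. Alternatives were leaving out each library, the replicate block, other filters, pseudocounts and scalings, voom, summed copies, and leaving out rows; voom, summed copies and leaving out family 16 were added after seeing the data.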

Additional observations from a re-analysis of the deposited data

How the results depend on the processing

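With all libraries 35 segments were called, where 8390 of all 12404 genes tested were. When 1 library was left out, 33 to 37 segments were called (18 to 22 higher and 15 to 18 lower), and 7834 to 7973 of all genes. With the replicate number as a block, 38 segments were called (20 higher, 18 lower), and 8113 of all genes. Deviations of same-numbered libraries from their group means correlated at 0.063, 0.122 and -0.083. Allo-labelled replicate 3 correlated best with syn-labelled replicate 1 (0.161). With 3 libraries per group, these values cannot tell whether same-numbered libraries share a source. At 5 FPKM or more, 21 segments were called, 11 higher and 10 lower, as fewer were tested. In that fit 6065 of all 8075 genes tested were called. Scaled to Trac, 32 segments were higher, and of the sets of copies 22 were higher and 5 lower. Of all 12493 genes in the fit of summed copies with that scaling, 9785 were higher and 936 lower. Without family 16 the log2 difference in summed Trav FPKM was 0.088, that in evenness -0.0064 and that in the effective number -1.33. The remaining results over all rows kept their direction and side of the threshold in the settings run.

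Trav16d-dv11 ran from -0.20 to 0.25 on the log2 scale when 1 library was left out, and Trav1 from -0.27 to 0.15. Trav1 was 0.50, Trav8n-2 0.36 and Trav7-4 0.14 after scaling to Trac. Scaled to Cd3, Trav1 was 0.37 and Trav8n-2 0.21, and scaled to summed Trav they were 0.20 and 0.015. The causes were not tested. Of the other values of named segments, 343 kept their call and direction, 11 lost the call and 6 gained it. DESeq2 was not run, since no counts were given, nor was the sum of Traj rows as a denominator, since no Traj row was used here. The depth of about 15 fragments per value limits single segments.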

Other observations

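Genes of the gamma chain, the partner of delta chains, differed in both directions. Tcrg-C2 was at 3.09, 3.81 and 4.62 FPKM in the allo-labelled libraries and at 14.4, 11.5 and 12.7 FPKM in the syn-labelled libraries (limma, adjusted p = 5.10e-05). Tcrg-C4 was at 2.15, 1.68 and 1.61 FPKM in the allo-labelled libraries, against 0.398, 0.393 and 0.597 FPKM in the syn-labelled libraries (limma, adjusted p = 0.000284). Neither overlapped between the groups, and of the 3 tested gamma and delta T cell markers 2 were higher and 1 lower. Over all genes tested, 34.7% were higher and 33% lower. Tcrg-C genes are close copies of each other, so their single levels are uncertain.

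Of 4 NK cell markers tested, 2 were higher and 2 lower in the allo-labelled libraries. The shares over all genes tested were 34.7% higher and 33% lower. Klrb1c, the gene of the NK1.1 receptor and the one tested marker of invariant T cells, was at 0.629, 0.537 and 0.557 FPKM in the allo-labelled libraries and at 11.3, 11.2 and 11.5 FPKM in the syn-labelled libraries. Of 4 markers of CD4+ T cells, 2 were higher and 2 lower, beside the same shares over all genes. Cd4 itself was at 5.04, 5.02 and 4.47 FPKM in the allo-labelled libraries and at 1.05, 0.659 and 0.716 FPKM in the syn-labelled libraries (limma, adjusted p = 9.88e-06). Their part in the results on Trav segments was not tested.

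The spread of Trav values between libraries of a group was above counting error, as it was for other rows. For rows with 20 to 200 recovered fragments, the median squared difference between libraries of a group, in units of counting variance, was 0.960 for 55 Trav rows and 1.14 for 5182 other rows, where counting alone gives 0.455.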
